A study of Mus musculus with 12 samples.

Results

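The expression of 10 genes that mark T cells and the killing machinery of cytotoxic lymphocytes was followed in mouse mammary tumours from restrained and from untreated mice. The genes were taken by name, as familiar markers of these cells, with earlier results of these data known. They were the CD3 chains Cd3d, Cd3e and Cd3g, the coreceptors Cd4, Cd8a and Cd8b1, the regulatory factor Foxp3, and the effector genes Gzmb, Prf1 and Nkg7. None was listed at 0, and all 10 were among the 14098 genes tested, out of 22769 that were not listed at 0. The tumours grew from 4T1 cells, a metastatic mammary carcinoma line of Balb/c origin, in Balb/c mice, and were removed 35 days after inoculation. Control tumours came from tumour-bearing mice that were left untreated, and stress tumours from mice that also underwent 28 consecutive daily restraint sessions of 2 hours. Each group had 3 mRNA and 3 miRNA libraries. mRNA levels are on the log2 scale of the authors' normalized table, whose read depth is unknown, and the miRNA libraries held 1738056 to 3202224 counts. All mRNA folds below take a log2 unit as a doubling at every level, which no source used here states. The libraries were made from whole tumours, which hold cancer, stromal and immune cells, so fewer cells of a type and less RNA per cell cannot be told apart. Nothing in the labels says that each tumour came from its own mouse, so the p-values reflect only how these libraries varied, which may be technical.

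T cells recognise antigen through a receptor whose variable chains are carried by the CD3 chains, and the CD3 tails pass the signal into the cell. CD8 marks the T cells that read MHC class I and kill infected or transformed cells, and CD4 marks those that read MHC class II and help or restrain other immune cells. Killing is done by perforin, which opens the target's membrane, and by granzymes, proteases that enter through it and start cell death. Natural killer cells use the same effector proteins without a T cell receptor. Transcripts of Gzmb, Prf1 and Nkg7 in a whole tumour therefore cannot be assigned to T cells alone.

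No member differed between stress and control past the threshold, an adjusted p under 0.05 in limma, a linear model fitted to all genes tested. Of the 10, 8 had a lower mean in stress and 2, Gzmb and Prf1, a higher one, and the limma adjusted p-values ran from 0.437 to 0.949. At an unadjusted p under 0.05 the count was also 0, where 17.4% of all genes tested passed. Of all genes tested, 5 (0.0355%) passed the adjusted threshold. The median difference of the members (stress minus control, log2 scale) was -0.10, against 0.0014 over all genes tested. With single libraries left out it ran from -0.16 without control replicate 2 to -0.02 without stress replicate 3. In all 10 the stress and control libraries overlapped, where 24.3% of all genes tested had groups that did not. For each of the 10, the range within the control libraries was wider than the difference between the groups, and so was the range within the stress libraries.

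**Figure D1:**
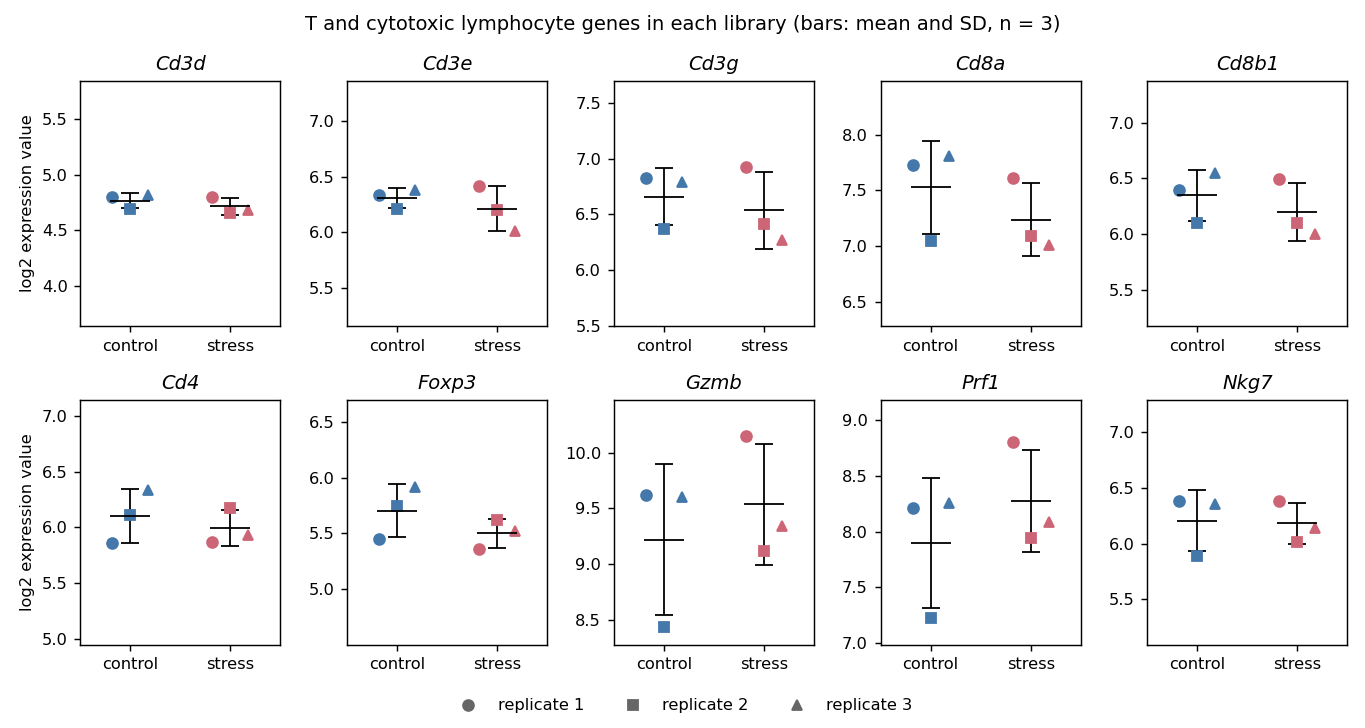
Log2 expression value of the 10 genes in each of the 3 control (blue) and 3 stress (red) libraries, with the mean and SD of each group (n = 3); every panel spans the same log2 distance on its vertical axis. The groups overlap in every panel, and the points of Gzmb and Prf1 are spread the widest.

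The 3 CD3 genes lie together on chromosome 9 of GRCm38: Cd3g (44969572 to 44980431, minus strand), Cd3d (44981786 to 44987339, plus strand) and Cd3e (44998740 to 45009627, minus strand). Cd3g and Cd3d are transcribed away from each other from starts 1355 bases apart. Cd3e, the epsilon chain, had log2 values of 6.33, 6.21 and 6.38 in the controls, in the order of their replicate numbers, and 6.42, 6.20 and 6.01 in stress. Cd3g, the gamma chain, had 6.82, 6.36 and 6.79 in control and 6.92, 6.41 and 6.27 in stress. Cd3d, the delta chain, had 4.80, 4.69 and 4.81 in control and 4.80, 4.66 and 4.68 in stress. In all 3 genes control replicate 2 was the lowest control and stress replicate 1 the highest stress library. The differences were -0.09 ± 0.11 (SE) for Cd3e, -0.12 ± 0.19 for Cd3g and -0.05 ± 0.06 for Cd3d, with adjusted p-values of 0.683, 0.777 and 0.678. Without stress replicate 3 the differences turned to 0.0045 for Cd3e and 0.0078 for Cd3g.

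CD8 is a pair of chains, alpha (Cd8a) and beta (Cd8b1), encoded next to each other on chromosome 6 (71373427 to 71379173 and 71322788 to 71337494, both plus strand). Dendritic cells can carry the alpha chain without the beta chain, so the pair says more about T cells than Cd8a alone. Cd8a had log2 values of 7.73, 7.04 and 7.80 in control and 7.61, 7.09 and 7.01 in stress. Cd8b1 had 6.40, 6.10 and 6.54 in control and 6.50, 6.10 and 6.004 in stress. Control replicates 1 and 3 and stress replicate 1 were high for both chains, and control replicate 2 and stress replicates 2 and 3 were low. Cd8a had the most negative difference of the 10 genes, at -0.29 ± 0.24 (SE; 1.22-fold lower, adjusted p = 0.561), with a 95% interval from -0.85 to 0.28. For Cd8b1 it was -0.15 ± 0.16 (adjusted p = 0.660). Single libraries moved both values: the Cd8a difference ran from -0.53 without control replicate 2 to -0.15 without control replicate 3, and that of Cd8b1 was -0.29 when stress replicate 1 was left out and -0.05 when stress replicate 3 was.

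Cd4 (chromosome 6, 124864692 to 124888221, minus strand) and Foxp3 (chromosome X, 7573644 to 7595245, plus strand) followed another order of libraries. Foxp3 is the factor that defines regulatory T cells, most of which carry CD4. Cd4 had log2 values of 5.86, 6.11 and 6.34 in control and 5.87, 6.18 and 5.94 in stress. Foxp3 had 5.45, 5.74 and 5.92 in control and 5.36, 5.62 and 5.53 in stress. In both genes replicate 1 was the lowest library of its group, control replicate 3 the highest control and stress replicate 2 the highest stress library. The Foxp3 difference was -0.20 ± 0.12 (SE), with the smallest adjusted p of the 10 (0.437), and that of Cd4 was -0.11 ± 0.13 (adjusted p = 0.709). Without control replicate 3 the Cd4 difference turned to 0.01, and that of Foxp3 ran from -0.33 without control replicate 1 to -0.09 without control replicate 3.

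Gzmb encodes granzyme B, Prf1 perforin, and Nkg7 a membrane protein of cytotoxic granules. They lie on chromosomes 14 (56258838 to 56262260, minus strand), 10 (61297833 to 61304680, plus strand) and 7 (43437073 to 43438249, plus strand). Their promoters are shown as a description of 3 genes that share no locus. Whether the letters of the promoters bear on the levels of these genes was not tested. Each sequence runs 5′ to 3′ on the gene's own strand from 250 bases before to 50 bases after the start site that RefSeq gives on GRCm38.p6. Capitals mark matches, on either strand, to 6 short motifs: RUNX (TGTGGT), ETS (AGGAAG), AP-1 (TGANTCA), STAT (TTCNNNGAA), T-box (GGTGTGA) and the TATA box (letters TATAAA).
Gzmb, chr14:56262285-56262584, minus strand: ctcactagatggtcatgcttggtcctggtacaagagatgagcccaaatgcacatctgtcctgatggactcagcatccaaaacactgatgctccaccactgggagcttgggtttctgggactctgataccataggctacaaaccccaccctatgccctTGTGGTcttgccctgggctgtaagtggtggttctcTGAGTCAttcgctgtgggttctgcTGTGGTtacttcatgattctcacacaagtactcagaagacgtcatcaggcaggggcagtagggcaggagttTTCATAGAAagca
Prf1, chr10:61297586-61297885, plus strand: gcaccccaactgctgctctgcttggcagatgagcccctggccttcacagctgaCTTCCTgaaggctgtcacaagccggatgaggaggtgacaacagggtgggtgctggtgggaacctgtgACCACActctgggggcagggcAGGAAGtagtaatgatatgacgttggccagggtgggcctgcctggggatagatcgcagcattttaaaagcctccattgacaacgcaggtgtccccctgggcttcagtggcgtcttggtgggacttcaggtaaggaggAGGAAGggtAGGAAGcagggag
Nkg7, chr7:43436888-43437187, plus strand: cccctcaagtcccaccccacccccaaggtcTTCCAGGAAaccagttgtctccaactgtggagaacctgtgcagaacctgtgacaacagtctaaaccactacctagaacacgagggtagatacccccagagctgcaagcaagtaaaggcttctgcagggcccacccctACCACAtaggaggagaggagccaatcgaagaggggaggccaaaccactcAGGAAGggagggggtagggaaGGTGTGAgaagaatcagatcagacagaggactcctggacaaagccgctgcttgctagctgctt

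RefSeq promoters matched 8 of the 10 members, with 9 windows because Foxp3 has a pair of starts. The RUNX motif stood in 3 of the 9, those of Gzmb (at bases -93 to -88 and -34 to -29), Prf1 (-130 to -125) and Nkg7 (-83 to -78). It stood in 16.8% of the 32851 promoters of that length that were compared. That set leaves out a chromosome that carries no member, and is meant by all promoters below. The ETS motif stood in 5 of the 9 and in 35.4% of all promoters, and the STAT motif in 4 of the 9 and in 8.30%. AP-1, at -58 to -52 in Gzmb, and T-box, at -13 to -7 in Nkg7, each stood in 1 of the 9, against 7.81% and 3.98% of all promoters. TATA stood in 1 of the 9, a Foxp3 window, and in 13.6% of all. These matches describe the letters of the windows, and no binding was measured here. The gene coordinates above are from GENCODE, and for Gzmb and Nkg7 they place the start apart from that of RefSeq. The GENCODE start of Gzmb lies outside its window, so the motif positions hold for the RefSeq starts only.

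Gzmb had log2 values of 9.62, 8.44 and 9.60 in control and 10.15, 9.12 and 9.34 in stress. Prf1 had 8.21, 7.22 and 8.26 in control and 8.80, 7.94 and 8.08 in stress. Nkg7 had 6.38, 5.89 and 6.36 in control and 6.39, 6.02 and 6.14 in stress. Stress replicate 1 was the highest of the 6 libraries for each gene and control replicate 2 the lowest. If a log2 unit is a doubling, Gzmb differed 3.29-fold and Prf1 2.99-fold between these 2 libraries. The means were 0.32 ± 0.39 (SE) higher in stress for Gzmb (1.25-fold, adjusted p = 0.705) and 0.38 ± 0.33 higher for Prf1 (1.30-fold, adjusted p = 0.590). Their 95% intervals, from -0.60 to 1.24 and from -0.42 to 1.17, reach from 0.658-fold to 2.36-fold for Gzmb and from 0.749-fold to 2.25-fold for Prf1. For Nkg7 the difference was -0.03 ± 0.15 (adjusted p = 0.949), and it was 0.015 after quantile normalization. The differences of Gzmb and Prf1 rested on the extreme libraries: without control replicate 2 they were -0.07 and 0.04, and without stress replicate 1 they were 0.0093 and 0.11. The Nkg7 difference was also above 0 without control replicate 1 (0.06), control replicate 3 (0.05) or stress replicate 2 (0.05).

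Gzmc, Gzmd, Gzme and Gzmf, granzymes of the same gene cluster as Gzmb, are named here after their values were seen. Gzmf had log2 values of 9.14, 7.42 and 9.48 in control and 9.92, 8.52 and 9.15 in stress, and Gzmd 9.20, 7.72 and 9.47 in control and 9.78, 8.47 and 8.96 in stress. Gzmc and Gzme were likewise lowest in control replicate 2 (7.46 and 7.39) and highest in stress replicate 1 (8.90 and 8.48). None of the 4 passed the threshold, with differences from 0.05 to 0.51 and adjusted p-values from 0.498 to 0.953. Their sequences are close to each other, so reads of these genes may be shared between them.

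**Figure D2:**
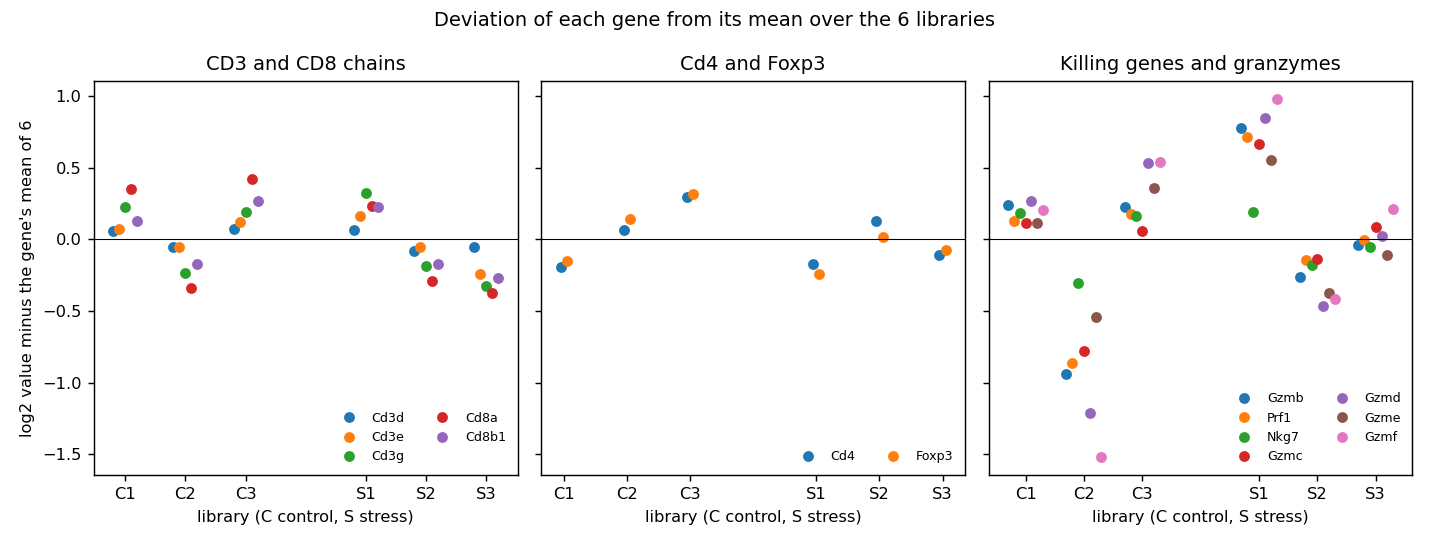
Log2 value of each gene minus its own mean over the 6 libraries, for the CD3 and CD8 chains, for Cd4 and Foxp3, and for the killing genes with 4 further granzymes; C1 to C3 are control and S1 to S3 stress replicates. The killing genes are lowest in C2 and highest in S1, whereas Cd4 and Foxp3 are lowest in replicate 1 of each group.

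Across the 10 genes, control replicate 2 was the lowest control in 8 and stress replicate 1 the highest stress library in 8. Cd4 and Foxp3 were the exceptions both times. The spread over the 6 libraries also differed from gene to gene. Gzmb ranged over 1.72 on the log2 scale, wider than 99.5% of the 2658 genes whose mean lay within 0.5 of its own, and Prf1 over 1.58, wider than 98.3% of 1953 such genes. Cd8a ranged over 0.80 (wider than 92.5%), Foxp3 over 0.55 (89.4%) and Cd3g over 0.65 (88.8%). Cd3d ranged over 0.16, wider than 34.0% of the genes near its level. Ranges shrink at low levels in this table, with a median of 0.18 for genes with a mean of 4 to 5 and of 0.30 for those with a mean of 7 to 8.

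**Figure D3:**
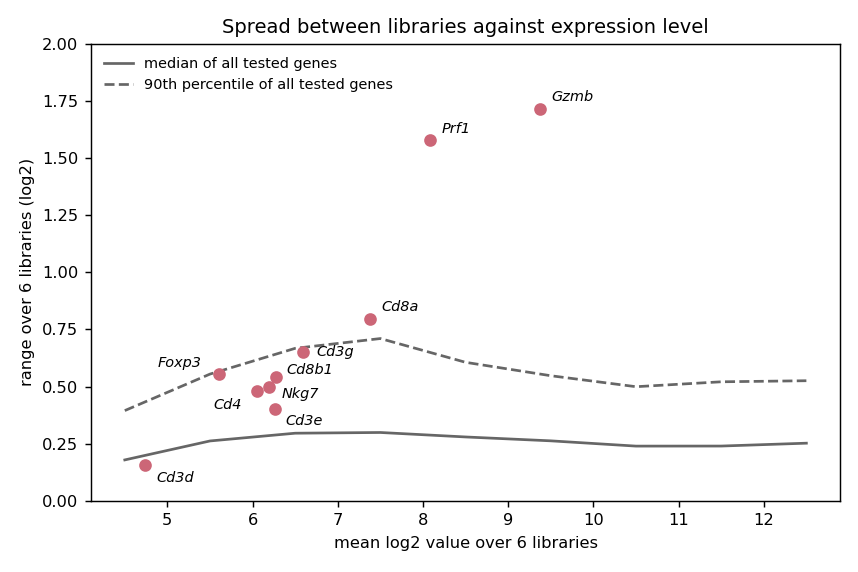
Range over the 6 libraries against the mean log2 value for the 10 genes (points), with the median (solid) and the 90th percentile (dashed) of all tested genes in steps of 1 log2 unit. Gzmb and Prf1 lie far above the dashed line, at ranges of 1.72 and 1.58, and Cd3d lies below the median line.

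**Figure D4:**
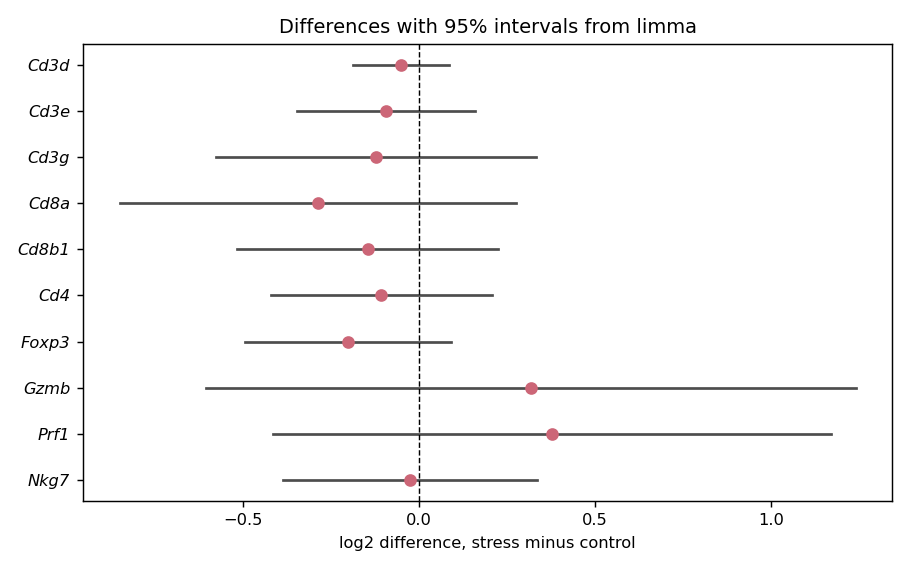
Log2 difference between stress and control (points) with 95% intervals from limma (lines) for the 10 genes, 3 libraries a group. Every interval crosses 0, and those of Gzmb and Prf1 are the widest.

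Divided by the exon length of each gene in GENCODE M21, the control levels (log2 value per kilobase) were highest for Gzmb (8.70), followed by Prf1 (6.53), Nkg7 (6.34), Cd8b1 (5.78), Cd8a (5.66), Cd3g (4.95), Cd3e (4.28), Cd4 (4.09), Cd3d (3.91) and Foxp3 (3.51). The stress means gave the same order, from 9.01 for Gzmb to 3.31 for Foxp3. Neighbours whose gap was within the larger SD of the pair were Cd8b1 and Cd8a, Cd3e and Cd4, and Cd4 and Cd3d in both groups, and Prf1 and Nkg7 in control only. This order holds only if the authors' values are not already scaled by length and a log2 unit is a doubling at every level. No source used here states either, and ranges shrink at low levels. Undivided, the control means ran from Gzmb (9.22), Prf1 (7.90), Cd8a (7.52), Cd3g (6.66), Cd8b1 (6.35), Cd3e (6.31), Nkg7 (6.21), Cd4 (6.10) and Foxp3 (5.70) to Cd3d (4.77). The length counts every annotated exon, which overstates the length of genes with several transcripts.

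Ratios within a library remove a change only if it moves both genes equally on the log2 scale. The range over the 6 libraries was 0.16 for Cd3d and 1.72 for Gzmb, and ranges shrink at low levels. A ratio to the CD3 mean may thus keep part of a common change. The log2 ratio of Gzmb to the mean of the CD3 chains was 3.63, 2.68 and 3.61 in control and 4.10, 3.36 and 3.68 in stress, a difference of 0.41 (exact permutation test, two-sided p = 0.4). That of Prf1 was 2.23, 1.47 and 2.27 in control and 2.75, 2.18 and 2.43 in stress, a difference of 0.47 (exact p = 0.3). Both had their lowest value in control replicate 2, and how much of this is a damped common change was not tested. Without that library the differences were 0.09 for Gzmb and 0.21 for Prf1, and without stress replicate 1 they were 0.21 and 0.32. Nkg7 to CD3 differed by 0.06 (exact p = 0.7). Cd8a to Cd4 was 1.87, 0.93 and 1.46 in control and 1.74, 0.92 and 1.07 in stress, a difference of -0.18 (exact p = 0.7) that turned to 0.05 without control replicate 1. Foxp3 to Cd4 had the narrowest range of the 7 ratios over the 6 libraries, from -0.42 to -0.37 in control and from -0.56 to -0.41 in stress, with a difference of -0.09 (exact p = 0.2). Cd8a to Cd8b1 differed by -0.14 (exact p = 0.4). The CD3 mean against Ptprc, the pan-leukocyte phosphatase CD45, differed by -0.05 (exact p = 0.6). After adjustment over the 7 ratios every p was 0.7, and 3 libraries against 3 cannot give a p below 0.1.

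Of 20 genes of the T cell receptor and its signalling, 19 were tested, and 3 were higher and 16 lower in stress, with a median difference of -0.08 and none called. Cd6, a T cell adhesion receptor, stood at -0.18 ± 0.10 (SE, adjusted p = 0.370). Control replicate 2 was the lowest control in 14 of the 19, and stress replicate 1 the highest stress library in only 9. Among 19 tested genes of cytotoxic effectors and natural killer cells, 9 were higher and 10 lower (median -0.0013, none called), with Gzma, granzyme A, 0.18 higher (adjusted p = 0.462) and Fasl, the death ligand, at -0.14 (adjusted p = 0.390). Control replicate 2 was the lowest control in 15 of these 19 and stress replicate 1 the highest stress library in 13.

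Of 8 tested genes of regulatory T cells, 3 were higher and 5 lower (median -0.04, none called), and control replicate 1 was the lowest control in 6. In stress this list did not follow Foxp3. Stress replicate 1 was the highest stress library in 5 of the 8, and stress replicate 2 the lowest in 5 and the highest in 0. Lrrc32, which presents latent TGF-beta and is also made by endothelial and stromal cells, stood at -0.54 ± 0.30 (SE, adjusted p = 0.399), and Ikzf2, a factor of these cells, was 0.19 higher (adjusted p = 0.471). Without control replicate 2 Lrrc32 stood at -0.23, and without stress replicate 3 Ikzf2 stood at 0.05. Of 6 genes for gamma delta T cells, 3 were tested. Sox13 stood at -0.26 ± 0.07 (adjusted p = 0.146), with all 3 stress libraries below all 3 controls. It is not restricted to these cells, and Trdc, the delta constant chain, stood only between 4.13 and 4.23. Il17a was listed at 0 in all libraries. No gene of these 4 lists had an unadjusted p under 0.05 except Sox13.

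Markers of neighbouring cell types were measured in the same libraries, as the log2 of the summed levels of each list's tested genes. For 8 pan-leukocyte genes this sum was 13.95 to 13.96 in control and 13.76 to 14.10 in stress, and Ptprc itself differed by -0.04 ± 0.10 (SE, adjusted p = 0.875). The sum was 16.42, 17.54 and 17.09 in control replicates 1 to 3 for 8 fibroblast genes and 12.58, 13.75 and 14.01 for 10 skeletal muscle genes. Control replicate 2, the lowest control in the CD8 and killing genes, was thus the highest in fibroblast genes, and control replicate 1, lowest in Cd4 and Foxp3, was the lowest control in both lists. In stress the sums were 16.58, 16.38 and 16.10 for fibroblast genes and 12.74, 12.96 and 11.80 for muscle genes. The orders seen in control did not recur there. Stress replicate 1, highest in the killing genes and the lowest stress library in Cd4 and Foxp3, had the highest fibroblast sum in stress. For 8 neutrophil genes the sum was 10.69 to 10.86 in control and 11.17 to 11.87 in stress, and Ly6g, a defining neutrophil marker outside that sum, stood between -0.10 and -0.05. The part of these cell types in the values of the T cell genes was not tested. B cell markers were weak: Ms4a1, Cd79a and Cd79b stood between 2.85 and 3.60, under the filter, while of the 4 tested genes of B and plasma cells 1 was higher and 3 were lower. Among these the heavy chain gene Ighm stood at -0.72 ± 0.34 (adjusted p = 0.333) and Cd22 was 0.10 higher (adjusted p = 0.829).

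The 3 genes closest in pattern to the mean of the CD3 chains over the 6 libraries, of 14088 genes compared, were Pygo2 (Pearson r = 0.981), a cofactor of Wnt signalling, Trbc2 (r = 0.980), a constant chain of the T cell receptor, and Anapc10 (r = 0.980), a subunit of the anaphase-promoting complex. Such values rest on 6 libraries that share their scaling, and describe only the order and spacing of these points. Trbc2 was at 5.81, 5.65 and 5.88 in control and 5.85, 5.65 and 5.58 in stress. Its reads may be shared with the near-identical Trbc1.

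The miRNA libraries give a second readout of white blood cells in the same groups, though the labels do not say that mRNA and miRNA libraries of one number came from one tumour. Of 8 miRNAs that are abundant in lymphocytes or other leukocytes, 7 had a mature sequence in RefSeq (GRCm38.p6). They are printed 5′ to 3′ with the seed, bases 2 to 8, in capitals, to show that all 7 differ in seed and are counted apart.
miR-142a-5p: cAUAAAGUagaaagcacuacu
miR-142a-3p: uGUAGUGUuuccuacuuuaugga
miR-146a-5p: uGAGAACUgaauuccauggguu
miR-155-5p: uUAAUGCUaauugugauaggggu
miR-181a-5p: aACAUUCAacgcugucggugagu
miR-223-3p: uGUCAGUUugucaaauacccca
miR-342-3p: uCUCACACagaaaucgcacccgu

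None of the 8 passed the threshold in edgeR's quasi-likelihood test, as none did (0%) of the 462 miRNAs tested. At an unadjusted p under 0.05 the count was 4 of 8, against 110 of 462 (23.8%), and by DESeq2's adjusted p it was 1 of 8, against 41 of 462 (8.87%). The groups did not overlap in 3 of 8, against 26.4% of all tested. The median log2 difference of the 8 was -0.21, against 0.02 over all miRNAs tested.

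miR-150-5p, characteristic of mature lymphocytes, was at 89.3, 165 and 276 CPM (read counts scaled to library size) in control and 62.3, 171 and 67.6 in stress. Replicate 2 in stress lay among the controls, and the log2 difference was -0.82 ± 0.51 (SE, edgeR adjusted p = 0.357). It ran from -1.41 without stress replicate 2 to -0.34 without control replicate 3. miR-142a, made in all white blood cells, stood at -0.21 ± 0.17 for the 5p arm (931, 1054 and 1184 in control, 1024, 920 and 792 in stress; adjusted p = 0.458) and at -0.22 ± 0.20 for the 3p arm (adjusted p = 0.555). miR-155-5p, induced in activated lymphocytes and macrophages, stood at -0.13 ± 0.28 (adjusted p = 0.820). These 4 had overlapping groups.

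miR-146a-5p, a brake on NF-kappaB signalling in T and myeloid cells, had 2422, 2131 and 2623 CPM in control and 1893, 1690 and 1606 in stress. All 3 stress libraries were below all 3 controls, with a log2 difference of -0.47 ± 0.14 (SE; 1.38-fold lower, edgeR adjusted p = 0.165). It was the 1 listed miRNA past the threshold in DESeq2 (adjusted p = 0.0475). miR-342-3p, found in lymphocytes, was at 221, 203 and 330 in control and 177, 164 and 155 in stress, a difference of -0.61 ± 0.22 (edgeR adjusted p = 0.178). miR-181a-5p, which tunes T cell receptor sensitivity and is also made by other cells, was higher in stress without overlap (1488, 1195 and 1181 against 1541, 1898 and 1595; 0.38 ± 0.16, edgeR adjusted p = 0.208). miR-223-3p, the miRNA of neutrophils, was at 291, 324 and 400 in control and 645, 371 and 635 in stress (0.70 ± 0.26 higher, edgeR adjusted p = 0.178). Its groups overlapped, and its adjusted p in DESeq2 was 0.109. Without the filter on low counts its edgeR adjusted p was 0.0113, in a fit that called 69 miRNAs.

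**Figure D5:**
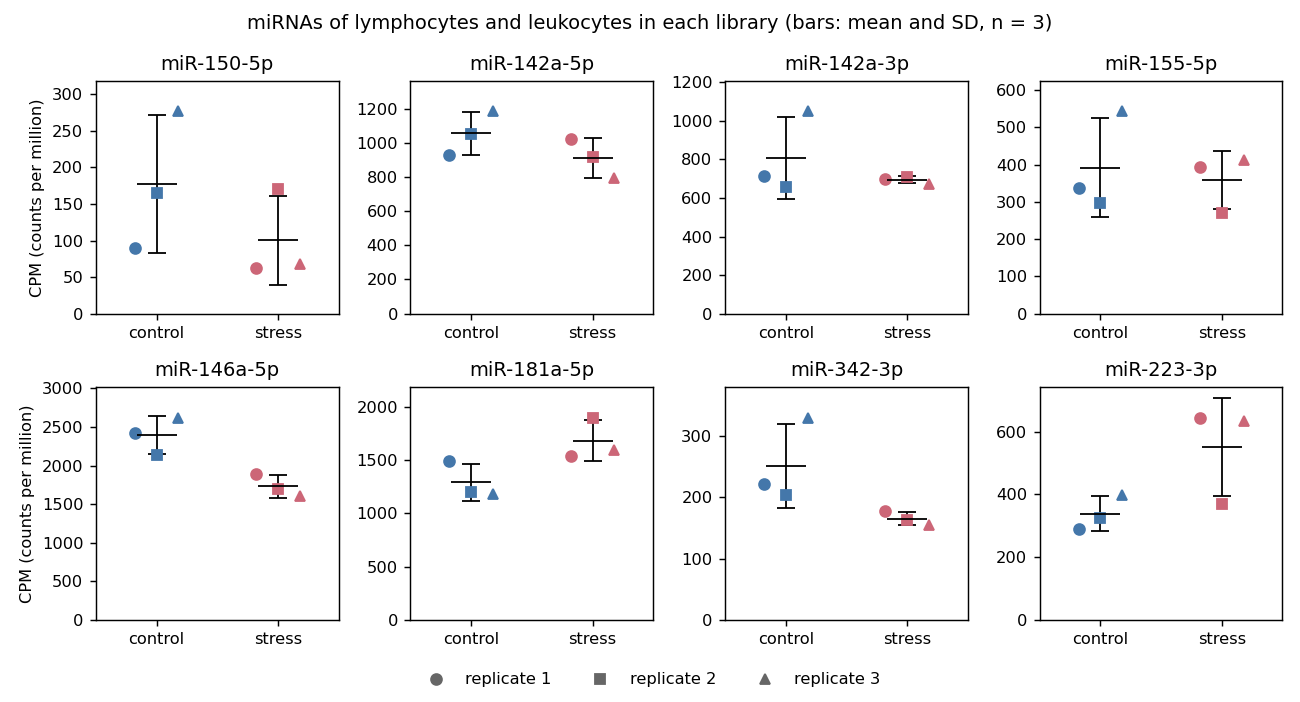
CPM (counts scaled to library size) of the 8 listed miRNAs in each of the 3 control (blue) and 3 stress (red) libraries, with the mean and SD of each group (n = 3); vertical axes start at 0. The groups do not overlap for miR-146a-5p, miR-181a-5p and miR-342-3p, and miR-150-5p varies the most within the groups.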

How the data were processed

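Per the submitters' processing notes, bcl2fastq, kallisto 0.46.1 and mm10 were used; no source used here says how kallisto's output became the mRNA table. The deposited mRNA values are log2 values normalized by the authors (base 2 is assumed), although the table is named as raw counts, so their depth is unknown. The deposited miRNA values are read counts by the authors; no source used here names their counting tool. Of 35453 mRNA rows, 12658 listed at 0 in all libraries and 26 named by a date were left out. The 14098 genes averaging 4 or more on the log2 scale were compared between stress and control with limma 3.58.1 (variance trend, robust). miRNA counts, 1738056 to 3202224 per library, were tested with edgeR 4.0.16 (TMM, filterByExpr; 462 miRNAs), keeping the row with the highest total for each mature miRNA, and with DESeq2 1.42.0 as an alternative, in R 4.3.3. CPM values were computed from TMM-scaled library sizes. Adjusted p-values are Benjamini-Hochberg over all features of a table, two-sided, with 0.05 as the threshold. Both fits were tested on simulated data. Coordinates are from GENCODE M21 (GRCm38, the assembly of mm10).

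The members and lists were chosen with earlier results of these data known. Named beyond the 10 members were Ptprc, the 2 genes with the smallest p of each list (or called genes, up to 4), the 3 genes closest to the CD3 mean, and all 8 listed miRNAs. Some results under this rule are not reported here. Genes outside it are marked, or are defining markers of a cell type. Bcl11b, Trgc1 and Trgc2 were not analysed here. Alternatives covered filters, the variance trend, normalization, a replicate block and leaving out each library.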

Additional observations from a re-analysis of the deposited data

How the results depend on the processing

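No member passed the threshold under any of the alternatives run (118 values; smallest adjusted p 0.184), and 110 of these kept their direction. The exceptions were Nkg7 after quantile normalization (0.0150) and differences with single libraries left out, which ran from -0.197 to 0.0045 for Cd3e, -0.317 to 0.0078 for Cd3g, -0.230 to 0.0108 for Cd4, -0.0735 to 0.528 for Gzmb and -0.186 to 0.0591 for Nkg7. They ran from -0.122 to 0.0834 for Ptprc, -0.127 to 0.262 for Cd22, -0.0694 to 0.0067 for Anapc10, -0.264 to 0.609 for Gzmd, -0.217 to 0.246 for Gzme and -0.117 to 0.913 for Gzmf. The ratios ran from -0.429 to 0.0455 for Cd8a to Cd4, -0.0185 to 0.113 for Nkg7 to CD3 and -0.141 to 0.0641 for CD3 to Ptprc. Among the miRNAs, miR-142a-3p ran from -0.343 to 0.0158 and miR-155-5p from -0.293 to 0.178. The cause was not tested.

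Of all mRNA genes, 5 were called; the count was 11 with a mean of at least 6, where fewer genes were tested, 8 after quantile normalization, and 0 to 5 with single libraries left out (0 without control replicate 1 or 3 or stress replicate 1 or 3). Of all miRNAs, 0 were called by edgeR, 41 by DESeq2, 69 without the filter and 0 to 82 with single libraries left out (82 without control replicate 1). With the replicate number as a block 0 mRNA genes and 0 miRNAs were called. Nothing in the labels pairs the libraries by number. Deviations of same-numbered control and stress libraries correlated at -0.079, 0.082 and -0.018 for mRNA and at -0.48, 0.31 and -0.13 for miRNA. A differently numbered miRNA pair, control replicate 1 and stress replicate 3, reached 0.45. Such deviations, taken within groups of 3, cannot exclude pairing. Unknown depth limits what the mRNA values can show of weakly expressed genes.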

Other observations

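Among dendritic and mast cell genes, control replicate 3 was the highest control in 7 of 8 dendritic cell genes and in 5 of 5 tested mast cell genes, and control replicate 1 the lowest control in 5 of 8 and 5 of 5. All 8 dendritic cell genes were lower in stress (median -0.09), among them Flt3, the receptor for their growth factor (-0.14 ± 0.12 SE, limma adjusted p = 0.540), and Siglech of plasmacytoid cells (-0.16 ± 0.14, adjusted p = 0.587). All 5 mast cell genes were lower too (median -0.23), with the tryptase Tpsb2 at -0.24 ± 0.12 (adjusted p = 0.360) and the carboxypeptidase Cpa3 at -0.23 ± 0.12 (adjusted p = 0.367). None of these passed the threshold, and all had overlapping groups.

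Of 8 tested neutrophil genes 7 were higher in stress (median 0.43). The smallest adjusted p-values were those of Csf3r, the G-CSF receptor (0.62 ± 0.10, adjusted p = 0.0881), and Clec4e, a receptor for microbial glycolipids (0.51 ± 0.10, adjusted p = 0.105). The largest differences, named after their values were seen, were those of the calprotectin genes S100a9 (1.21, adjusted p = 0.159) and S100a8 (0.86, adjusted p = 0.192). Of 10 macrophage genes 5 were higher and 5 lower (median 0.07), with Cd68 0.22 higher (adjusted p = 0.131) and Cd14 0.25 higher (adjusted p = 0.189). The pan-leukocyte genes Cd53 and Coro1a differed by 0.13 (adjusted p = 0.327) and -0.18 (adjusted p = 0.404). In the stroma, Thy1, which mouse T cells carry as well as fibroblasts, stood at -0.49 ± 0.07 (adjusted p = 0.0769) and Postn at -0.52 ± 0.17 (adjusted p = 0.203), while Kdr and Tek of endothelium stood at -0.55 ± 0.10 (adjusted p = 0.106) and -0.39 ± 0.09 (adjusted p = 0.136). The groups did not overlap in these 4 stromal genes, in Csf3r, Clec4e, S100a8, S100a9, Cd68, Cd14, Cd53, Mb, Tnni2 or Krt7. All of them but S100a8 and S100a9 were named for the smallest p of their list, a choice that favours such separation. Of all genes tested, 24.3% had groups that did not overlap. Over whole lists the count was 5 of 6 tested endothelial genes, 4 of 8 neutrophil genes and 2 of 8 fibroblast genes. It was 2 of 10 for macrophage genes, 2 of 10 for muscle genes, 1 of 8 for pan-leukocyte genes and 1 of 6 for epithelial genes. Muscle genes Mb and Tnni2 stood at -0.55 ± 0.16 (adjusted p = 0.175) and -0.27 ± 0.09 (adjusted p = 0.197), and the keratins Krt7 and Krt18 at -0.36 ± 0.13 (adjusted p = 0.221) and 0.10 ± 0.07 (adjusted p = 0.498).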
